A study of Rattus norvegicus with 2 samples.

Results

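The genes described here make, break down, carry and read out cyclic AMP (cAMP) in dorsal root ganglia (DRGs), where the cell bodies of sensory neurons (SNs) lie, together with the protein kinase C (PKC) family. They were taken by gene symbol, as every gene of an adenylyl cyclase, a phosphodiesterase, a subunit of cAMP-dependent protein kinase (PKA), a PKC isoform or an A-kinase anchoring protein that a probe set of the array names alone. This gave 62 of 14217 measured genes, in 97 probe sets. They comprise 8 adenylyl cyclases, 22 phosphodiesterases, 6 PKA subunits, 8 PKC isoforms and 15 anchoring proteins. A further 3 genes carry a matching symbol but belong to none of these enzyme classes or were not placed in one (Pde4dip, Pde12 and Prkcel1). Classes follow symbol patterns, so the 22 also hold Pde6d, described below as a carrier, and the photoreceptor subunit Pde6h.

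Female Sprague-Dawley rats, 4 weeks old, had received 100000 IP-B12 cells, a pulmonary carcinoma line of the rat that grows osteolytically, in the marrow cavity of the right tibia under anesthesia. DRGs of the tumor side and of the left, control side were taken 14 days later from tumor-bearing rats, so that both groups come from rats that carry the tumor. Each side is 1 array, the sources used here do not give the number of rats, and no injection of the left tibia is described, so tumor and procedure cannot be told apart. With 1 array per side no difference below has a replicate error or a test, and each is a description of these arrays.

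In sensory neurons, cAMP is made by adenylyl cyclases when a receptor coupled to the stimulatory G protein is occupied, as by prostaglandins in inflamed tissue. It releases the catalytic subunits of PKA from the regulatory ones, and phosphodiesterases end the signal by hydrolysing the cyclic nucleotide. Anchoring proteins hold PKA, and often PKC and phosphodiesterases, next to channels and receptors. PKA and PKC are both known to sensitize nociceptors, among others by phosphorylating the capsaicin receptor TRPV1. An array of whole ganglia reads the transcripts of these proteins and neither cAMP nor kinase activity.

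Signals are MAS5 intensity values on a linear scale, and each ratio is log2(tumor/control) of these signals. A gene was represented by its brightest probe set and counted as above the signal rule if a signal reached the median of its array, 69.0 for the control-side and 72.7 for the tumor-side array. The tumor-side array was 5.98% brighter by trimmed mean, and the median gene above the rule had a ratio of 0.08, against which the ratios below are read. Among 9695 genes above the rule, the middle of the ratios, from percentile 2.5 to percentile 97.5, ran from -0.35 to 0.47. Sensory neuron markers were at a median ratio of -0.01 (15 of 15 above the rule), satellite glia markers at 0.12 and Schwann cell markers at 0.07. Markers of tissue around the ganglia moved further. Of 9 skeletal muscle markers above the rule, 8 had a tumor-side signal lower by a fold of 1.5 or more, and the summed signal of all 11 measured ones went from 2448 in the control array to 1700 in the tumor array. Without Pvalb, which proprioceptive sensory neurons also express, the sums were 1384 and 500.2. Only the control array, where they are high, put 7 of the 9 above the rule, and the median ratio was -1.62 over the 9 and -0.44 over the 2 with both signals at the array medians, Acta1 and Pvalb. All 5 bone and osteoclast markers above the rule were higher by that fold or more, with a sum over all 8 measured of 893 and 1894. Of those below the rule, Mmp9 was also higher on the tumor side (7.48 and 14.3). Dmp1 (52.3 and 37.6) and Phex (36.1 and 33.1) went the other way. The 4 granulocyte markers above the rule were all lower by that fold or more, with sums over all 5 measured of 1431 and 688. Camp, below the rule, went the other way with 23.6 and 30.9. Erythroid markers had a median ratio of -0.38 over 3 genes, endothelial markers 0.19 over 4 and fibroblast markers 0.22 over 8. None of the measured muscle, bone or granulocyte markers was at 0, but no gene was, the lowest signals being 0.026 and 0.16. This does not show that a marker is expressed. In whole ganglia, fewer cells of a type and less RNA per cell cannot be told apart.

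The promoters of 4 of the genes are shown because the results turn on them. Prkcq and Prkca had the lowest ratios of all 39 genes above the signal rule, Prkar1a stands for the PKA subunits, which had the narrowest ratios, and Akap17a was alone among the matched genes in holding the full cAMP response element in this window. The sequences are from RefSeq on the build GRCr8, 5′ to 3′ on the strand of the gene, from 250 bases before to 50 after the start. Capitals mark, on either strand, the cAMP response element TGACGTCA, its core TGACG, which the full element holds in both directions, the GC box GGGCGG and the TATA box TATAAA.
Prkcq, chr17:72288459-72288758 (- strand): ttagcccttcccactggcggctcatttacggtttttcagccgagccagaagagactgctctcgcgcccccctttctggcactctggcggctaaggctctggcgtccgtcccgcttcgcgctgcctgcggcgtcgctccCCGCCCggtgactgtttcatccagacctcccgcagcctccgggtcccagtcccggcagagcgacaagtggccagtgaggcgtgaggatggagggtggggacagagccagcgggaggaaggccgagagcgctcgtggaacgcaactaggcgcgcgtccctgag
Prkca, chr10:93787278-93787577 (- strand): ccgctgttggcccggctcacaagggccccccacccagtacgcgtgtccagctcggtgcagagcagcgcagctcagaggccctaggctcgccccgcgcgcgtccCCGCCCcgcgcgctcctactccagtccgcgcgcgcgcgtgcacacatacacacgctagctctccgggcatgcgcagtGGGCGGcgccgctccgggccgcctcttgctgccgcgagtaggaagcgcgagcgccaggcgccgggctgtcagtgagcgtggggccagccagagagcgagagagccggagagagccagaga
Prkar1a, chr10:95120287-95120586 (+ strand): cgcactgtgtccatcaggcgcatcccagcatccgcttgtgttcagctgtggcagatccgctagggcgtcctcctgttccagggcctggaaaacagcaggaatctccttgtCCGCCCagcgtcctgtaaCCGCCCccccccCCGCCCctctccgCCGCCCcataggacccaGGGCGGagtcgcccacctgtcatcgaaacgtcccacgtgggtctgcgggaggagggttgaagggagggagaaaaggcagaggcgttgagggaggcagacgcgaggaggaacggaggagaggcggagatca
Akap17a, chr12:21428198-21428497 (- strand): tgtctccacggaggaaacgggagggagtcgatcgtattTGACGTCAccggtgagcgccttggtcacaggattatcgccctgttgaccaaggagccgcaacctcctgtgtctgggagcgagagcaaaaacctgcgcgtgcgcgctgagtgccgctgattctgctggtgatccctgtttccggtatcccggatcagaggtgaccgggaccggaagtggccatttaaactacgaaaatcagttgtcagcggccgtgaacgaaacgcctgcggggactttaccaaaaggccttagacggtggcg
The Prkar1a window held 5 GC boxes, that of Prkca 2 and that of Prkcq 1, with none of the other motifs. The Akap17a window held no GC box, and its response element begins 212 bases before the start. RefSeq promoters were matched for 48 of the 62 genes, with 60 promoters in all, since some genes have several. The full response element was in 1 of these 60 promoters (1.67%), against 1.83% of all 33469 promoters of the table and 3.23% of the 8973 promoters of genes above the signal rule. The core was in 13 of the 60 (21.7%), those of Adcy9, Akap11, Akap13, Akap17a, Akap8l, Pde10a, Pde4a, Pde4d, Pde8a, Prkaca and Prkacb, against 21.2% and 32.1%. GC boxes were in 61.7%, against 33.1% and 63.2%, and TATA boxes in 3 of the 60, against 14.2% and 6.63%. The 60 include promoters of genes below the signal rule, such as Adcy9, Pde4a and Pde8a, while the 8973 do not. None of these shares was tested against the others. A match of letters is a description and not a binding site.

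Of the 62 genes, 39 were above the signal rule, with signals from 55.7 to 5563. At a fold of 2 or more, 0 of the 39 were higher in the tumor-side array and 0 lower, against 0.134% and 0.186% of all genes above the rule. At a fold of 1.5 or more, 0 were higher, against 1.19% of all genes, and 1, Prkcq, was lower, against 0.743%. With the dim genes included, 6 of the 62 were higher by a fold of 2 and 2 lower, against 4.31% and 3.71% of all 14217 genes, and 9 were higher by a fold of 1.5 and 4 lower, against 7.97% and 6.25%. Of these, 3 of the higher and 1 of the lower have a signal not above the trp control probe sets described below and get no fold there. The median ratio of the 39 was 0.04, and 13 of them (33.3%) had a lower signal on the tumor side, against 29.1% of all genes. The cAMP and PKC machinery of the ganglion had few wide ratios, as did genes at large. Of the 39, 3 lay outside the middle range given above, Prkcq and Prkca below and Pde4c above it. By its definition this range leaves out 2.5% of all genes above the rule at each end. Pde4c met the rule through the tumor side alone. A technical spread is offered by probe sets of the same gene. The SD of their log2 ratios was taken over genes within 1 log2 unit in signal. It was from 0.07 for the brightest of the 39 to 0.66 for the dimmest. Probe sets of 1 gene can lie far apart, as those of Prkar2a with control-side signals of 1299, 50.5 and 27.6. The SD may therefore include probe sets much dimmer than the gene it is compared with. As deposited, 3 of the 39, Prkcq, Akap9 and Prkcb, had a ratio larger in size than this SD. Once the offset of 0.08 was removed, by quantile normalization, by centring on the median or by loess, 6 had such a ratio. These were each time Prkcq, Prkca, Prkce, Prkacb, Prkar1a and Prkar1b, all with negative ratios, while Akap9 and Prkcb were within the SD. With each gene at the average ratio of its probe sets, 9 had such a ratio. Of these, Prkcq, Prkacb and Prkar2a were negative, and Prkar1a (0.15), Prkcb, Akap1, Akap12, Akap13 and Akap7 were positive. Prkca, Prkce and Prkar1b were then within the SD. The share of all genes past this SD was not computed. Such counts, here and below, therefore describe these genes only and do not set them apart from genes at large.

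**Figure D1:**
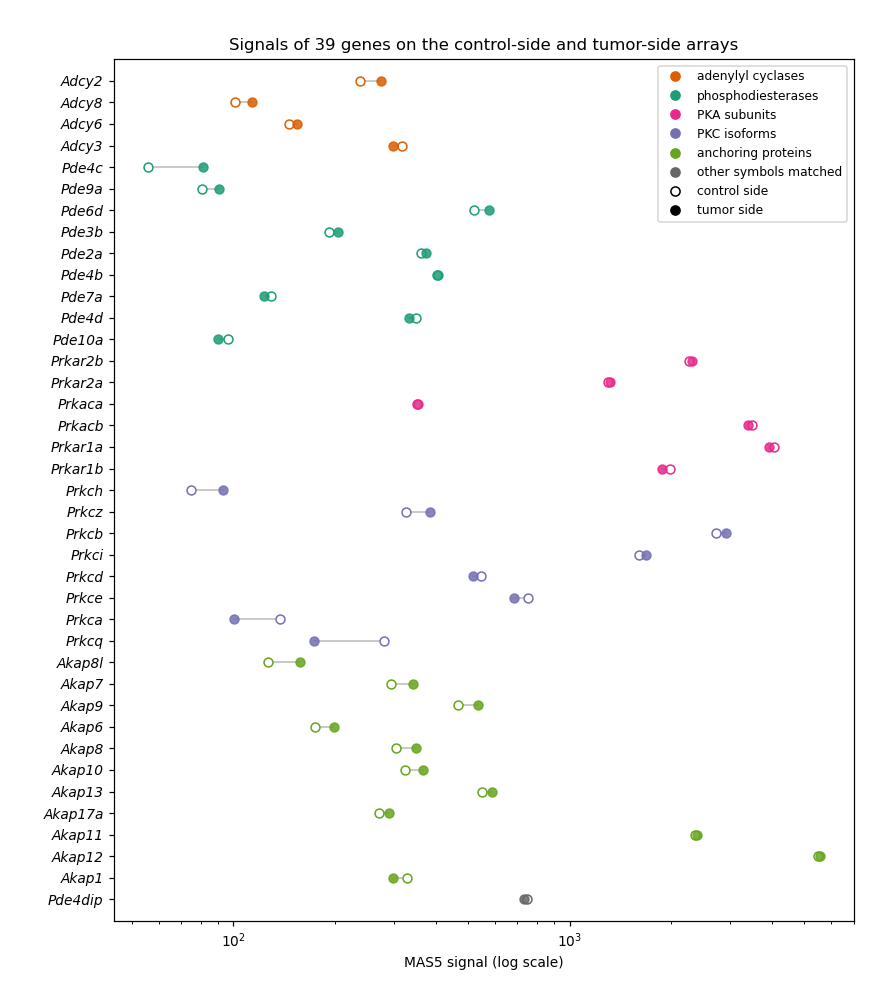
MAS5 signal on a log scale for the 39 genes above the signal rule, with an open circle for the control-side array, a filled circle for the tumor-side array and a grey line between them, coloured by class. The circles overlap or nearly touch for most genes, while Prkcq (281 and 173), Prkca (137 and 100) and Pde4c (55.7 and 81.1) show the widest gaps.

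The adenylyl cyclases, which make cAMP from ATP, differed little between the sides. Of 8 measured, 4 were above the rule, with a median ratio of 0.12. Adcy2, a cyclase that G protein beta-gamma subunits can activate, had a control-side signal of 238 and a tumor-side signal of 274 (ratio 0.21), the order kept for each pair of signals that follows. Adcy8, a cyclase driven by calcium and calmodulin, had 101 and 113 (ratio 0.16). Both lay above the median gene. Adcy6, a cyclase that calcium inhibits, had 146 and 155 (ratio 0.08), and another, dimmer probe set of it had 46.0 and 45.6. Adcy3, best known from olfactory neurons, had 318 and 298 (ratio -0.10), the only cyclase of the 4 with a lower signal on the tumor side. All 4 ratios were smaller than the SD between probe sets of the same gene at their signals.

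The other 4 cyclases were below the rule. Adcy5, close to Adcy6 in structure and regulation, had 38.2 and 56.6 (ratio 0.57), and its other probe set had 1.01 and 2.65. Adcy9, which forskolin activates only weakly, had 17.9 and 17.3 (ratio -0.06). Adcy10, the soluble cyclase that bicarbonate activates, had 2.93 and 23.1, and Adcy4 had 1.53 and 1.43. The highest signals of the trp control probe sets, made against a bacterial transcript, were 5.39 in the control-side and 4.63 in the tumor-side array, so that Adcy4 on both arrays and Adcy10 on the control-side array did not stand above them and get no fold.

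Of the 22 phosphodiesterases, 9 were above the rule, with a median ratio of 0.04 and ratios from -0.10 to 0.54. Most of them were nearly level between the sides, and 8 of the 9 lay within -0.10 to 0.16. Those that hydrolyse cAMP alone come from the Pde4, Pde7 and Pde8 families. Pde4b, a target of anti-inflammatory inhibitors, had 403 and 407 (ratio 0.01), and its other probe set had 76.3 and 79.4. Pde4d, of the same family, had 349 and 333 (ratio -0.07), with ratios of -0.14 and 0.16 on its dimmer probe sets. Pde7a, which is insensitive to the classic Pde4 inhibitor rolipram, had 129 and 124 (ratio -0.07). These 3 enzymes were level between the arrays. Pde4c, the remaining one of this kind above the rule, stood apart with 55.7 and 81.1, 1.46 times the control-side signal (ratio 0.54). It met the rule through the tumor side alone and has 1 probe set, and 46 of 500 probe sets of like signal had a ratio as high. Its ratio was smaller than the SD of 0.66 between probe sets of the same gene at this signal.

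Phosphodiesterases that hydrolyse both cAMP and cGMP were as level. Pde2a, which cGMP stimulates, had 363 and 373 (ratio 0.04). Pde3b, which cGMP inhibits, had 193 and 204 (ratio 0.08). Pde10a, known from striatal neurons, had 96.3 and 90.1 (ratio -0.10), and -0.12 on its other probe set. Of those selective for cGMP, Pde9a had 80.7 and 90.4 (ratio 0.16), while Pde5a, the target of sildenafil, had 2.75 and 0.92, not above the trp control probe sets on either array. Pde6d, named with the rod enzyme but known as a carrier of prenylated proteins, had 520 and 577 (ratio 0.15). Pde4dip, whose product myomegalin binds Pde4d and is itself no phosphodiesterase, had 747 and 730 (ratio -0.03), and 101 and 88.5 on its other probe set (ratio -0.19).

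The dim phosphodiesterases had the widest ratios among genes with both signals above the trp control probe sets. Below the rule, 15 of the 62 genes had both signals above the trp control probe sets, and 9 of these are phosphodiesterases. At a fold of 2 or more, 3 of the 15 were higher in the tumor-side array, all of them phosphodiesterases, against 5.24% of the 3208 genes in this range, and 1, Pde6h, was lower, against 5.67%. Pde8a, a cAMP-selective enzyme of high affinity, had 9.28 and 54.5, 5.88 times the control-side signal (ratio 2.56). Its signal moved from percentile 18.5 of the control-side array to percentile 45.5 of the tumor-side array, and 1 of the 500 probe sets nearest in signal had a ratio as high. Its other probe set had 2.69 and 12.2, also higher on the tumor side but with a control-side signal at or under the trp controls. Pde1a, an enzyme that calcium and calmodulin activate, had 11.4 and 30.2 (ratio 1.40), and Pde4a had 15.9 and 33.4 (ratio 1.07). Here 17 and 23 of the 500 nearest probe sets had ratios as high. The SD between probe sets of the same gene was 1.01 at the signal of Pde8a and of Pde4a and 1.05 at that of Pde1a. Pde6h, a cone photoreceptor subunit, had 32.6 and 5.72, which is 5.69 times lower, close to the trp control probe sets on the tumor side.

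The other dim ones were closer together. Pde1c had 47.7 and 64.9 (ratio 0.45), but 8.36 and 6.30 on its other probe set. Pde8b had 36.5 and 30.9 (ratio -0.24). The rod genes Pde6a, Pde6b and Pde6g had ratios of -0.22, 0.55 and 0.70, with signals between 12.1 and 44.4. Pde12, a mitochondrial enzyme that trims poly(A) tails, had 33.5 and 41.7. Pde1b had 5.17 and 12.5, Pde3a 2.22 and 2.52 and Pde7b 1.56 and 1.65, each with at least 1 signal at or under the trp controls.

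**Figure D2:**
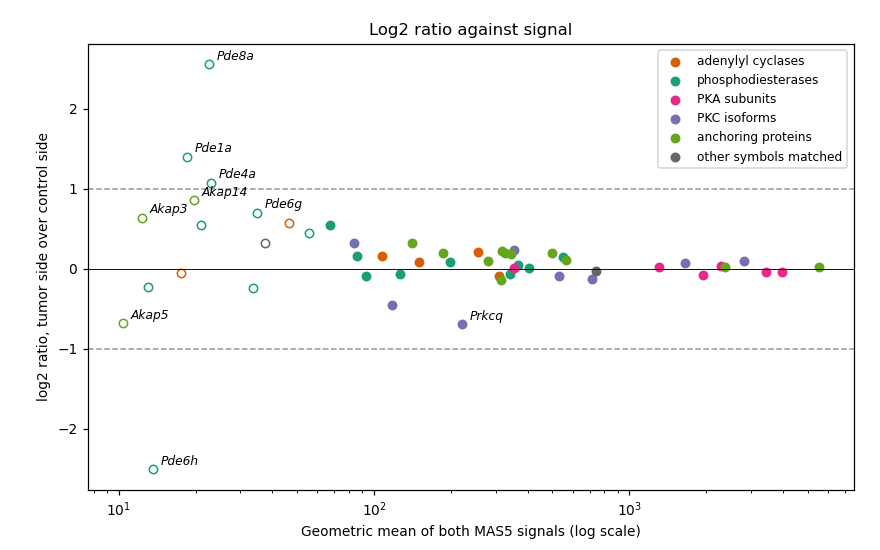
Log2(tumor/control) of the MAS5 signal against the geometric mean of both MAS5 signals on a log scale, 1 point per gene, for the 54 genes with both signals above the trp control probe sets. Filled points are above the signal rule and open points below it, colours give the class and dashed lines a fold of 2. Ratios fan out toward low signal, where Pde8a (2.56) and Pde6h (-2.51) lie, and narrow toward the bright PKA subunits.

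All 6 PKA subunits were above the rule, and they were the narrowest class, with ratios from -0.08 to 0.03 and a median of -0.02. Both catalytic subunits and all 4 regulatory subunits lay below the median gene at 0.08. Prkaca, the catalytic alpha subunit, had 351 and 354 (ratio 0.01). Prkacb, the catalytic beta subunit, had 3499 and 3386 (ratio -0.05). Catalytic subunits were thus level between the sides on their brightest probe sets. The type I regulatory subunits, which sit mostly in the cytosol, were Prkar1a with 4048 and 3916 (ratio -0.05) and Prkar1b with 1993 and 1888 (ratio -0.08). The type II regulatory subunits, which bind anchoring proteins tightly, were Prkar2a with 1299 and 1318 (ratio 0.02) and Prkar2b with 2266 and 2316 (ratio 0.03). As deposited, each of these 6 ratios was smaller than the SD between probe sets of the same gene at its signal, which was from 0.08 to 0.25. After centring, 3 were larger than it, Prkacb and Prkar1a at -0.13 and Prkar1b at -0.16, as they were after quantile normalization and loess.

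The position of the PKA genes under the median gene held on their brightest probe sets and not on all of them. Prkar1a had 3811 and 4096 (ratio 0.10) on its next probe set and 670 and 872 (ratio 0.38) on another, a spread of 0.43 and the widest within any of the 12 genes with several probe sets above the rule. Prkacb had 740 and 823 (ratio 0.15) on another probe set, and 29.5 and 20.2 on a dim one. Prkar2a had 50.5 and 20.5 on a dim probe set (ratio -1.30) and -0.15 on a further one. When each gene was given by the mean of its probe sets, 5 subunits were under the median gene and Prkar1a was above it at 0.15. As a scale for these sizes, 13 of 15 sensory neuron markers were also below the median gene, 8 of 15 after quantile normalization, and their part in the PKA values was not tested.

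**Figure D3:**
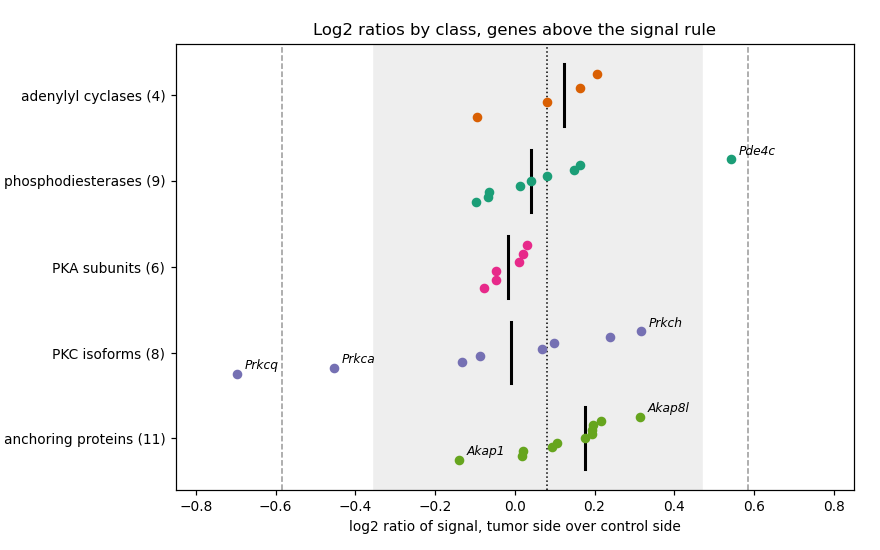
Log2(tumor/control) of the MAS5 signal for the genes above the signal rule in each class, each gene a point and the gene number in brackets. Black bars are class medians, the dotted line is the median of all genes (0.08), the grey band their range from percentile 2.5 to percentile 97.5 and the dashed lines a fold of 1.5. PKA subunits are bunched around -0.02, PKC isoforms are spread from -0.70 to 0.32, and 8 of 11 anchoring proteins lie right of the dotted line.

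PKC isoforms were the most spread class above the rule. All 8 measured were above it, with a median ratio of -0.01, 4 with a higher and 4 with a lower signal on the tumor side. The widest, Prkcq, Prkca and Prkch, had SDs between probe sets of the same gene of 0.35, 0.48 and 0.58 at their signals. The brighter Prkcb and Prkci had 0.09 and 0.10 and were closer to level. The part of signal in the spread of this class, or in the narrowness of the PKA subunits, was not tested. Of the conventional isoforms, which need calcium and diacylglycerol, Prkca had 137 and 100, 1.37 times lower (ratio -0.45). Prkcb had 2724 and 2914 (ratio 0.10), with ratios of 0.29 and 0.05 on its other probe sets. The 2 conventional isoforms measured thus differed in sign. Prkca has 1 probe set, its ratio was smaller than the SD of 0.48 between probe sets of the same gene at this signal as deposited and larger after centring, at -0.54, and 13 of the 500 nearest probe sets had a ratio as low.

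Of the isoforms that need diacylglycerol and no calcium, 3 of 4 had a lower signal on the tumor side, while 29.1% of all genes above the rule did. Prkcq, which encodes PKC theta, had 281 and 173, 1.62 times lower (ratio -0.70). This was the lowest ratio of the 39 genes and larger than the SD of 0.35 at this signal, and 1 of the 500 probe sets nearest in signal had a ratio as low. Prkcq has 1 probe set, so no other measurement of it was at hand. PKC theta is known from T cells and from skeletal muscle. Of 9 skeletal muscle markers above the rule, 8 were lower on the tumor side and 1, Pvalb, was higher. Only the control array, where they are high, put 7 of these 9 above the rule. Of the 2 with both signals at the array medians, Acta1 was lower and Pvalb higher. The lowest ratios were those of Tnnc2 with 135 and 18.1 and Myl1 with 236 and 39.4, both above the rule through the control side alone. Markers of T cells were not listed. The part of muscle in the Prkcq value was not tested. Prkce, which encodes PKC epsilon, a kinase of primary nociceptors, had 751 and 686 (ratio -0.13), as low as 13 of the 500 nearest probe sets. It was smaller than the SD of 0.15 as deposited and larger after centring, at -0.22. Prkcd had 547 and 515 (ratio -0.09). Prkch had 74.8 and 93.1 (ratio 0.32), and its other, dim probe set went the other way with 33.3 and 28.2.

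The atypical isoforms, which need neither calcium nor diacylglycerol, were both higher in signal on the tumor side, as were 70.9% of all genes above the rule. Prkcz had 325 and 383 (ratio 0.24). Prkci had 1612 and 1691 (ratio 0.07), just below the median gene and at -0.01 after centring, with ratios of 0.17 and -0.30 on dim probe sets. Prkcel1 had 1.20 and 7.71 and did not stand above the trp control probe sets on the control side.

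Most anchoring proteins lay a little above the median gene. Of 15 measured, 11 were above the rule, with a median ratio of 0.18, and 10 of the 11 had a higher signal on the tumor side, while 70.9% of all genes above the rule did. Among them, 8 lay above the median gene and 3 below it. The sizes were small, from -0.14 to 0.31, and Akap9 alone had a ratio larger than the SD between probe sets of the same gene at its signal, which it did not after centring, at 0.11.

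Akap8l, Akap7 and Akap9 had the highest ratios of the class. Akap8l, a nuclear relative of Akap8, had 127 and 158 (ratio 0.31), with 0.05 and 0.37 on its other probe sets. Akap7, a small membrane anchor, had 294 and 342 (ratio 0.22), and 35.5 and 57.5 on a dim probe set. Akap9, an anchor of the Golgi and the centrosome, had 465 and 533 (ratio 0.20), but 216 and 208 (ratio -0.06) on its other probe set. These were followed by Akap6, an anchor of the nuclear envelope first known from muscle, with 174 and 200 (ratio 0.19 and, on its other probe set, 0.11). Akap8, a nuclear anchor, had 305 and 349 (ratio 0.19). Akap10, which binds both types of regulatory subunit, had 324 and 366, with ratios of 0.18 and 0.19 on its 2 probe sets.

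The other anchors above the rule were closer to the median gene or below it. Akap12, known as gravin, which also binds PKC, had 5497 and 5563 (ratio 0.02), and 613 and 752 (ratio 0.30) on its other probe set. Akap11, which binds the kinase GSK3B, had 2362 and 2398 (ratio 0.02 and, on its other probe set, 0.10). Akap13, which is also an exchange factor for RhoA, had 547 and 589 (ratio 0.11), with -0.19 on another probe set above the rule. Akap17a, a splicing regulator whose promoter with the response element is shown above, had 271 and 289 (ratio 0.09). Akap1, the mitochondrial anchor, was the only one with a lower signal on the tumor side, with 329 and 299 (ratio -0.14), and 61.5 and 56.2 on another probe set (ratio -0.13). A dim probe set of Akap1 had 4.01 and 16.2, which turned the mean over its probe sets to 0.58. Below the rule, Akap5, the anchor that tethers PKA and PKC to TRPV1, had 13.1 and 8.19 (ratio -0.68), with an SD of 1.14 at this signal. Akap14 had 14.7 and 26.5, Akap3 9.93 and 15.4, and Akap4, an anchor of sperm flagella, had 1.24 and 1.41.

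**Figure D4:**
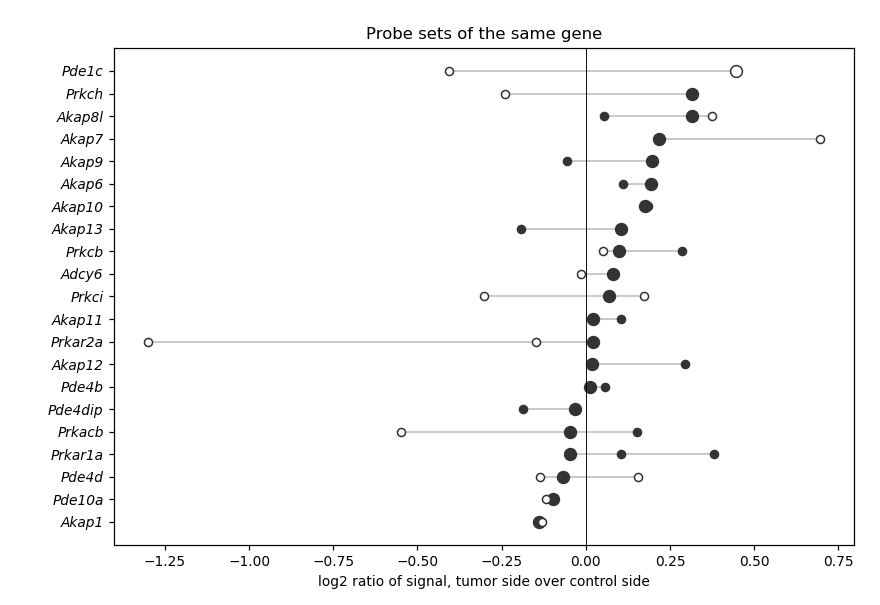
Log2(tumor/control) of the MAS5 signal for each probe set of the 21 genes with several probe sets above the trp control probe sets, 1 row per gene. The large circle is the brightest probe set, filled circles are above the signal rule and open circles below it. Probe sets of Akap1 and Pde10a nearly coincide, while those of Prkar2a reach from 0.02 to -1.30.

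Across these probe sets the agreement was partial. Of the 12 genes with several probe sets above the rule, 8 had ratios of the same sign on all of them and 4, Akap13, Akap9, Prkacb and Prkar1a, did not. The median distance between the lowest and the highest ratio within a gene was 0.19. The class medians given above lie between -0.02 and 0.18.

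Genes up- and downstream of these enzymes, in lists chosen with earlier results of these data known, were mostly level as well. No gene of the 11 lists above the rule differed by a fold of 2. At a fold of 1.5, 1 of their 84 genes, Hcn2, was higher (1.19%, as for all genes) and 1, Nos2, was lower (1.19%, against 0.743% of all genes). Hcn2, a pacemaker channel that binds cAMP directly, had 104 and 183 (ratio 0.81). Hcn3, a relative that responds little to cAMP, had 52.5 and 78.4 (ratio 0.58), above the rule through the tumor side alone. The median over these 4 cAMP readers was 0.30 with Hcn3 and 0.03 over the 3 others. The other direct readers of cAMP above the rule were level, Rapgef4, an exchange factor for Rap, with 1449 and 1475 and Popdc3 with 339 and 342. Of 9 G protein alpha subunits above the rule, with a median ratio of -0.02, Gnaq had 73.5 and 90.1 and Gnas, the stimulatory subunit itself, 8637 and 8497 (ratio -0.02). The 5 receptors coupled to the stimulatory G protein had a median of 0.03, from Htr7 with 132 and 113 to Adora2a with 79.6 and 83.2.

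PKA inhibitors and phosphatase regulators had a median of 0.07 over 8 genes, with Pkia, an inhibitor peptide, at 2461 and 2665. The CREB family and its coactivators had a median of 0.15 over 12 genes. Crtc2, a coactivator that cAMP sends to the nucleus, had 160 and 113 (ratio -0.50), while Creb1 had 294 and 346 (ratio 0.24) and Ep300 410 and 478 (ratio 0.22). Genes that CREB is known to activate had a median of -0.03 over 8 genes. Nr4a1 had 210 and 165 (ratio -0.35), Sst 641 and 703 and Fos 135 and 130 (ratio -0.06), and Bdnf had a ratio of -0.55.

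Of the genes around PKC, 8 phospholipases C, which release diacylglycerol, had a median of 0.06, with Plcd1 at 115 and 90.7 and Plcb4 at 293 and 347. The 9 diacylglycerol kinases, which remove it, had a median of -0.03, with Dgki at 127 and 87.1 (ratio -0.54) and Dgkg at 396 and 493 (ratio 0.32). Another probe set of Dgkg above the rule had a ratio of 0.03. Of protein kinase D and the PKC-related kinases, 3 were above the rule and all above the median gene on their brightest probe sets. These were Prkd2 with 51.8 and 75.2, above the rule through the tumor side alone, Pkn2 with 418 and 547 and Prkd3 with 419 and 496. Prkd3 had a ratio of 0.00 on another probe set above the rule. PKC substrates and partners had a median of -0.02 over 13 genes, with Pard3 at 124 and 103, Cavin3 at 1225 and 1357 and Rack1 at 2827 and 3109. Pard3 had a ratio of -0.28 here but 0.07 on another probe set above the rule. Gap43, a growth cone protein, had 3935 and 3582. In the cGMP branch, with 5 genes and a median of 0.14, Nos2, the inducible nitric oxide synthase of activated macrophages, had 116 and 61.0 (ratio -0.93), with only the first signal reaching its array median, and Prkg2 had 88.2 and 110 (ratio 0.32). Macrophage markers had a median ratio of 0.18 over 7 genes, and their part in the Nos2 value was not tested.

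**Figure D5:**
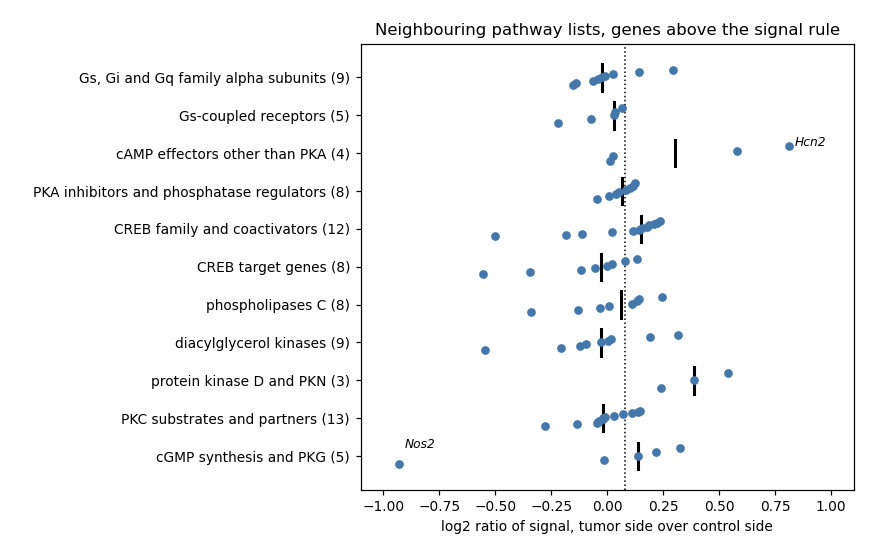
Log2(tumor/control) of the MAS5 signal for the genes above the signal rule in 11 lists of neighbouring pathway genes, each gene a point and the gene number in brackets. Black bars mark list medians, and a dotted line marks 0.08, the median over genes above the rule. Hcn2 (0.81) and Nos2 (-0.93) lie farthest out and the other genes lie between -0.55 and 0.58.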

How the data were processed

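Signal intensity values were deposited by the authors for 31099 probe sets on each of 2 Affymetrix rat arrays, hybridized with biotinylated cRNA made from 100 ng of total RNA and summarised with MAS5, named in the submitters' processing notes, at default settings. The scaling between the arrays and a genome build are not given in the sources used here. Detection calls were not used here, and the number of arrays limits the precision.

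The arrays hold 57 control probe sets and 31042 others, of which 20826 are paired with 1 symbol and 436 with more than 1, while 9780 are not named here. All 62 members kept their symbol in RefSeq, and 3 probe sets that pair a matching symbol with a further one were left out. Log2 ratios were computed from the deposited intensity values without a pseudocount. Each gene was taken at its probe set of highest mean log2 signal. The signal rule needs the higher signal to reach the median of its array. The fold of 2, the fold of 1.5, the 500 nearest probe sets and the SD between probe sets of the same gene describe the arrays, as no test is possible. Every member above the rule was given with both signals, every other member with its signals or its range, and of each pathway list up to 3 genes with the largest ratios. Gap43, Gnas, Fos, Rapgef4, Popdc3, Pkia and the muscle genes were chosen after their values were seen. Members and lists were chosen with earlier results of these data known. The alternatives were quantile normalization, median-centred ratios, loess (span 0.3), 11.1 added to each signal (their percentile 20), 3 other signal filters, probe sets ending in _x_at or _s_at left out, and genes given by the mean ratio of their probe sets. The steps were tested on simulated data. Ratios were computed with pandas 2.3.3 and numpy 2.4.6 in Python 3.11.15, loess with statsmodels 0.14.6 and figures with matplotlib 3.10.9.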

Additional observations from a re-analysis of the deposited data

How the results depend on the processing

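Without a signal filter, which adds the dim genes, 6 of the 62 genes were higher in the tumor-side array by a fold of 2 or more and 2 were lower, against 4.31% and 3.71% of all 14217 genes, and at a fold of 1.5 it was 9 and 4, against 7.97% and 6.25%. Adcy10, Pde1b and Prkcel1 among the higher and Pde5a among the lower have a signal not above the trp control probe sets. With the filter at percentile 75 of each array, 25 genes were left and 0 were lower by a fold of 1.5, because Prkcq, at percentile 74.2 in the control-side array, was left out. The ratio of Prkcq was between -0.78 and -0.66 under the alternatives that held it. The median ratio of all members was -0.043 after quantile normalization, -0.043 with median-centred ratios and -0.040 after loess, and that of the PKA subunits was -0.091, -0.10 and -0.093. These scalings take away the median of 0.08 of all genes. The count of PKA subunits below the median gene, chosen after seeing the data, was 6 of 6 under 8 alternatives and 5 with the mean over probe sets. Of 336 values for single genes, 327 moved by less than the technical SD and 9 by more, 6 of these with the mean over probe sets. The signal filters and the leaving out of probe sets ending in _x_at or _s_at left each gene's ratio as it was. The values under these settings could not move, so the share of values that held is inflated. Of the list medians, 169 moved by less than their error and 18 by more. This error takes the genes of a list as independent. Each side being 1 array, dim signals have no error of their own. No paired analysis was possible because there are no replicates.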
